A study of Arabidopsis thaliana with 27 samples.

Results

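Leaf transcripts of a G-protein null mutant of Arabidopsis thaliana were compared with those of the Columbia wild type in clean air. The comparison rests on 13 of the 27 Affymetrix ATH1 arrays of the study. All arrays labelled as clean-air leaf were taken: 7 of wild type (3 at 3 h and 4 at 2 d) and 6 of the mutant (3 at 3 h and 3 at 2 d). Both times were pooled, with time as a covariate. The mutant carries gpa1-4 and agb1-2 together, and no array of either single mutant was analysed here, so the parts of the alpha and the beta subunit cannot be told apart. Plants grew for 4 to 5 weeks in 9 h of light and 15 h of dark, were moved to 4 chambers held at 24 °C, and received 5 ppb ozone (clean air) for 7 h per day. The other 14 arrays come from the same 2 genotypes at 125 ppb and share no array with the clean-air comparison. Mid-whorl leaves were taken at both times. The labels call the replicates biological without saying how many plants went into 1 array, so p-values measure the spread between these arrays.

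The heterotrimeric G protein of plants consists of an alpha subunit (GPA1 in Arabidopsis), a beta subunit (AGB1) and one of a few gamma subunits. It couples signals perceived at the plasma membrane to responses in the cell. Mutants of the alpha and beta subunits are known for altered stomatal density and stomatal responses to abscisic acid, altered cell division and leaf shape, altered sugar sensing, and, for the beta subunit, altered defence against pathogens. Both alleles used here are T-DNA insertions. The question addressed by the comparison is how the leaf transcriptome differs between these genotypes in plants kept in clean air.

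Neither GPA1 nor AGB1 was among the 13513 probe sets that the platform annotation pairs with 1 gene, so their transcripts could not be looked up by name. A further 8730 probe sets had no gene in that annotation but were tested, and some of these may report GPA1 or AGB1. Of 49 marker genes of leaf and other cell types, 5 were measured. The mesophyll marker RCA, which encodes Rubisco activase, stood at 14.39 in wild type and 14.38 in the mutant on the log2(intensity + 1) scale, which is the scale of every level and difference given here. The guard cell marker FAMA stood at 7.48 and 7.37, and the root marker EXPA7 at 4.49 and 4.21. The trichome marker TRY stood at 6.47 in wild type and 5.69 in the mutant (unadjusted p = 0.0165, adjusted p = 0.999), and the senescence marker SAG29 at 6.92 and 7.67. Arrays of opposite genotype correlated about as highly as arrays of 1 group. Pairs of arrays from 1 group correlated across probe sets at 0.933 to 0.965 (median 0.950), pairs of opposite genotype at the same time at 0.935 to 0.965 (median 0.953), and pairs from different times at 0.907 to 0.943 (median 0.924).

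In clean air a difference between mutant and wild-type leaf was detected at very few probe sets. Of 22746 probe sets, 4 passed the test (limma, Benjamini-Hochberg adjusted p under 0.05 over all probe sets), which is 0.0176% of those tested, and all 4 were lower in the mutant. They were 267375_at, 253204_at, AT3G13630 and 250108_at. Only AT3G13630 has a gene name among them, so 1 of 13350 genes represented by 1 probe set each passed (0.00749%). The other 3 are not paired with a gene in the annotation used and are given by probe set ID. Whether any of these 3 reports GPA1 or AGB1 was not tested. In the same model on the same 13 arrays, 4018 probe sets differed between 2 d and 3 h (17.7%). At an unadjusted p under 0.05 there were 964 probe sets (4.24%), fewer than the 1137 per bin that a flat distribution of p-values would hold.

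**Figure D1:**
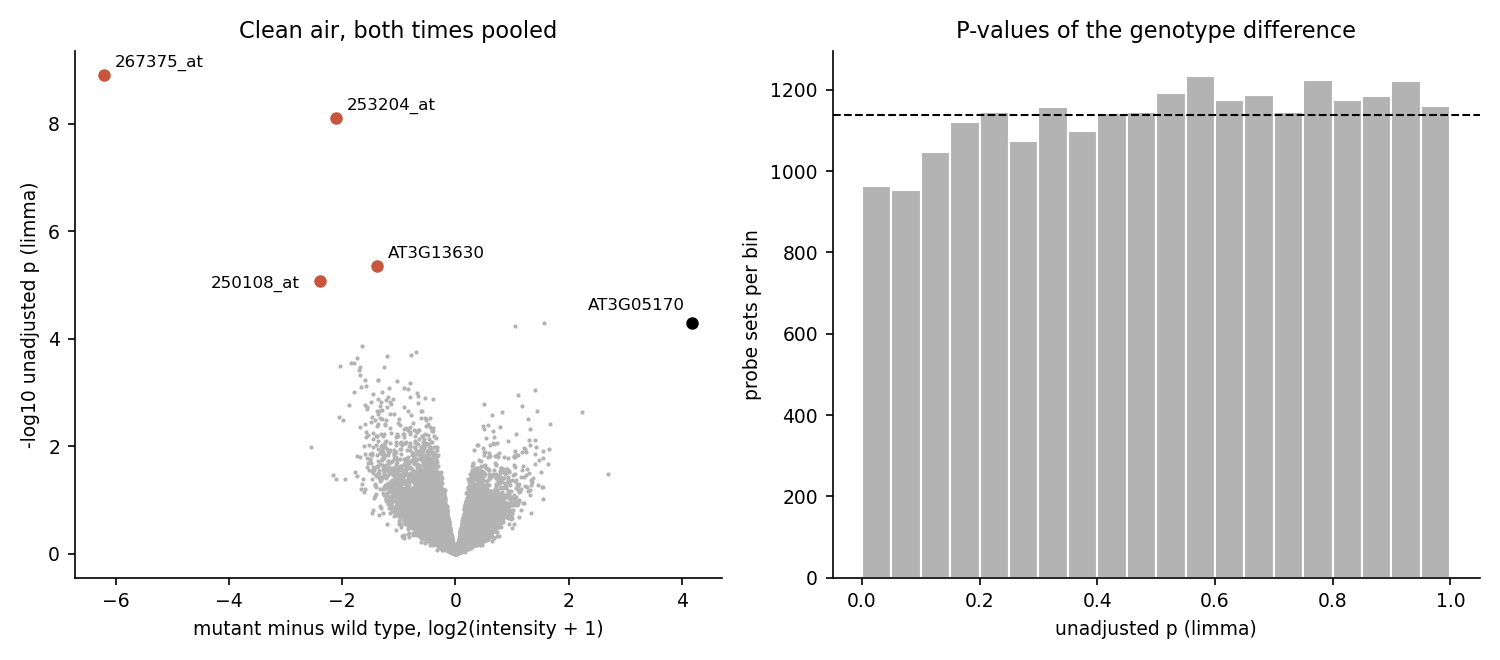
Left, each point is 1 of 22746 probe sets, with the difference of mutant minus wild type in clean air on the x axis (log2(intensity + 1)) and -log10 of the unadjusted limma p on the y axis. The 4 red points passed at an adjusted p under 0.05 and lie left of 0, and AT3G05170 (black) did not pass. Right, counts of probe sets in p-value bins of width 0.05, where the dashed line marks a flat distribution of 1137 per bin and the lowest bin holds 964.

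The probe set 267375_at was bright in wild type and near the bottom of the range in the mutant. The 7 wild-type arrays lay between 8.16 and 9.50 (median 8.85) and the 6 mutant arrays between 1.43 and 3.80 (median 2.49). The groups stood far apart, and every mutant array was lower than every wild-type array. On the linear scale the mean intensity was 456.9 over the wild-type arrays and 5.98 over the mutant arrays, where the 25th percentile of the mutant arrays lay between 36 and 42.7. The difference was -6.20 ± 0.387 (SE, adjusted p = 2.81e-05). It was -5.82 ± 0.569 at 3 h and -6.54 ± 0.533 at 2 d. In bulk leaf tissue a lower level cannot be told apart from fewer cells that hold the transcript.

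Another unnamed probe set, 253204_at, kept a readable signal in the mutant at a lower level. Wild-type arrays lay between 9.92 and 10.86 (median 10.30) and mutant arrays between 7.83 and 8.75 (median 8.02), again with no overlap. Mean intensity was 1279 over the wild-type arrays and 290.8 over the mutant arrays. The difference was -2.10 ± 0.153 (SE, adjusted p = 8.91e-05), with -2.15 ± 0.235 at 3 h and -2.05 ± 0.219 at 2 d. At 3 h the 3 mutant arrays read 7.91, 7.83 and 7.93, against 9.92, 10.30 and 9.92 in wild type. At 2 d they read 8.39, 8.10 and 8.75, against 10.05, 10.41, 10.54 and 10.86. The lowest wild-type array thus stood above the highest mutant array at each time.

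AT3G13630, a protein-coding gene on chromosome 3, was the only named gene that passed. Its 7 wild-type arrays lay between 6.26 and 6.92 (median 6.42) and its 6 mutant arrays between 4.78 and 5.63 (median 5.11), with no overlap. Means were 6.54 ± 0.243 (SD, n = 7) and 5.16 ± 0.359 (SD, n = 6), and the difference was -1.38 ± 0.179 (SE, adjusted p = 0.0340). The mutant arrays were low at both times: they read 4.86, 4.89 and 5.33 at 3 h and 5.45, 4.78 and 5.63 at 2 d. The call stood in 5 of 21 alternative settings. Among the 13 fits that left out 1 array it stood in 1, without mutant replicate 3 at 2 d. The difference kept its sign in all 21, between -1.50 and -1.09.

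The remaining call, 250108_at, lay at the bottom of the intensity range in both genotypes. Wild-type arrays read 2.56 to 4.45 (median 3.72) and mutant arrays 0.68 to 2.07 (median 1.18), or mean intensities of 12.6 and 1.6. The difference of -2.40 ± 0.330 (SE, adjusted p = 0.0481) shrank to -0.68 with a pseudocount of 16. It passed in 2 of 21 alternative settings, 1 of them the fit without wild-type replicate 2 at 2 d, and in none of the other 12 fits that left out 1 array.

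**Figure D2:**
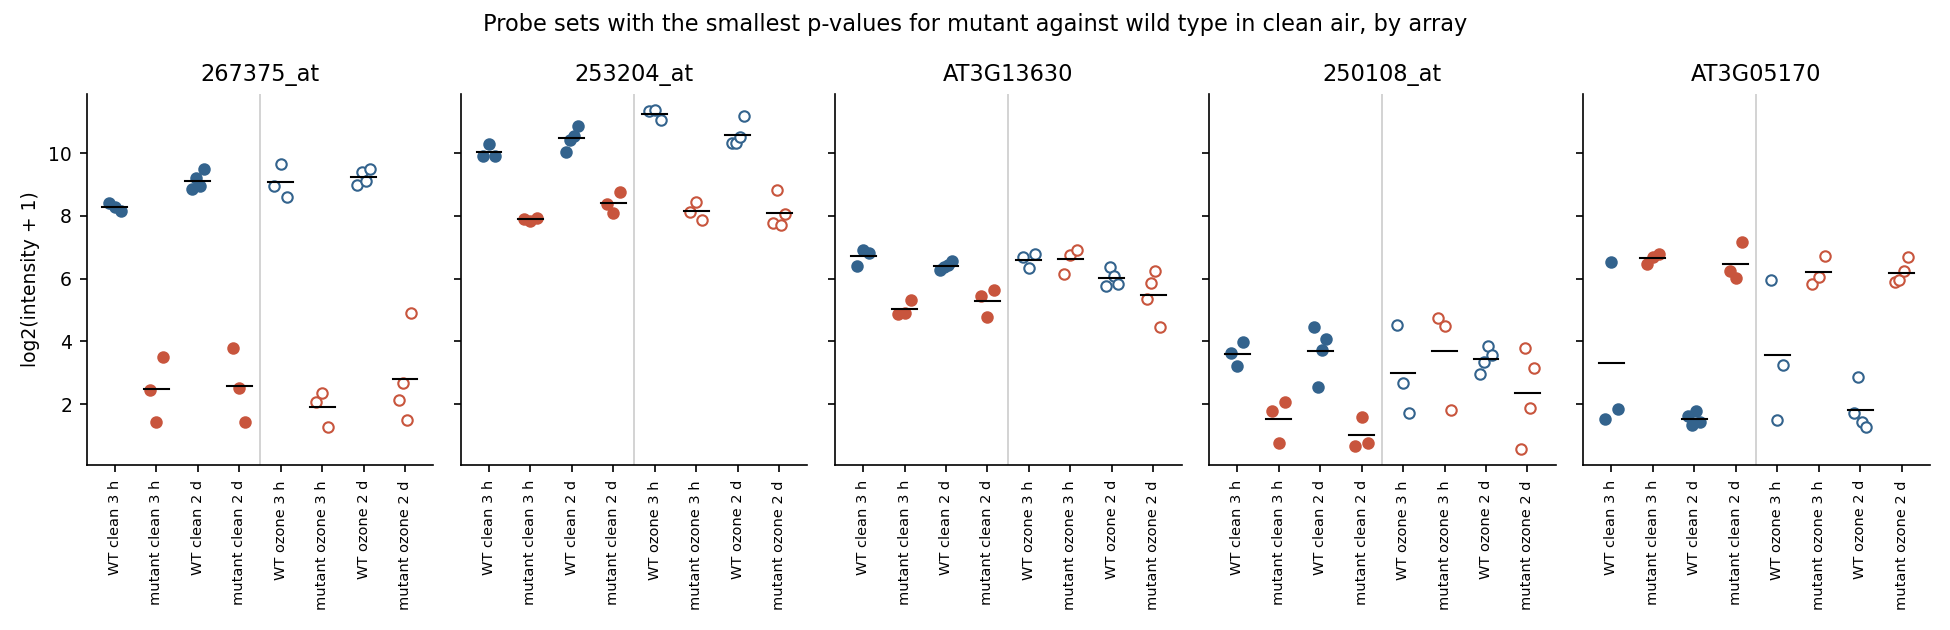
Each point is 1 array, with log2(intensity + 1) on the y axis, wild type in blue, the mutant in red, clean air filled and ozone open, and bars at group means. In clean air (left of the grey line) the genotypes do not overlap for the 4 probe sets that passed, and AT3G05170 is high in all 6 mutant arrays, low in 6 of 7 wild-type arrays and at 6.54 in the remaining one.

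The largest positive difference, that of AT3G05170, did not pass over all 13 arrays, where 1 wild-type array stood apart. AT3G05170 lies on chromosome 3 and encodes a protein of the phosphoglycerate mutase family. All 6 mutant arrays read between 6.01 and 7.17. Wild type read 1.54, 6.54 and 1.85 at 3 h and 1.63, 1.32, 1.77 and 1.43 at 2 d. The 3 h wild-type array of replicate 2 thus read at the mutant level, while the other 6 lay near the bottom of the range. In that array the probe sets 267375_at and 253204_at read 8.28 and 10.30, both at wild-type levels. The difference was 4.19 ± 0.691 over all 13 arrays (SE, adjusted p = 0.189). Without that array it was 4.94 with an adjusted p of 5.27e-07, and it also passed when all 27 arrays entered the fit (4.13, adjusted p = 0.0188). It passed in none of the other 12 fits that left out 1 array. With a pseudocount of 16 the difference was 2.20.

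No further named gene passed. The 7 genes with the next smallest p-values in each direction, among those with a mean level of at least 6 in the higher genotype, are given here by their values. AGL42, a MADS-box transcription factor also called FOREVER YOUNG FLOWER for its role in floral senescence and abscission, read 5.65 to 6.91 in wild type (median 6.29) and 3.96 to 5.80 in the mutant (median 5.19). The AGL42 ranges overlapped slightly, and the difference was -1.22 ± 0.234 (SE, adjusted p = 0.426). AT5G17700, of the MATE efflux family, read 7.38 to 8.67 in wild type and 6.21 to 7.82 in the mutant, a difference of -1.18 ± 0.268. AT5G05840, of unknown function, had its wider gap at 2 d: wild type read 5.91, 5.83, 4.80 and 4.93 and the mutant 3.28, 2.41 and 3.02, a difference of -2.46 ± 0.349 (SE, adjusted p = 0.0776), against -0.78 ± 0.373 at 3 h. AT5G38020, of the SABATH methyltransferase family, differed by -0.69 ± 0.131, and AT2G39620, a pentatricopeptide repeat protein, by -0.68 ± 0.159. AT1G70270 and AT2G06960 differed by -1.19 ± 0.284 and -0.66 ± 0.158.

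The 7 genes on the higher side had differences of 0.39 to 0.73. Among them AT4G28240 differed by 0.73 ± 0.234. AT2G40435 differed by 0.68 ± 0.221 and AT3G25400, a dCTP pyrophosphatase, by 0.65 ± 0.174. AT1G62045 differed by 0.61 ± 0.198 and the MYB-related factor AT5G08520 by 0.58 ± 0.165. ATCRT1, which encodes a RING-type ubiquitin ligase, differed by 0.50 ± 0.125, and AT5G22820 by 0.39 ± 0.128. Adjusted p-values of these 7 genes lay between 0.761 and 0.999. The group of G-protein subunits and partners, built from annotated symbols, held 2 measured genes, the pirin gene PRN and the acireductone dioxygenase gene ARD4. PRN, which binds GPA1, differed by -0.11 ± 0.221 (95% interval -0.59 to 0.37) and ARD4, of the family that binds AGB1, by 0.02 ± 0.184 (95% interval -0.38 to 0.42).

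The clean-air arrays of the genotypes did not overlap at 16 probe sets (0.0703% of 22746), of which 15 were lower and 1 was higher in the mutant. The 4 probe sets that passed are among these 16. In ozone, where 7 wild-type and 7 mutant arrays were compared, 7 probe sets did not overlap (0.0308%). Only 267375_at and 253204_at were without overlap in both airs.

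Split by time, calls of a genotype difference were about as sparse. At 3 h 4 probe sets passed (0.0176%) and at 2 d 2 passed (0.00879%), and 267375_at and 253204_at were among them at each time. The other 2 calls at 3 h, named after their values were seen, were AT3G43930 and 264788_at. AT3G43930 read 4.51, 4.50 and 5.55 in wild type and 1.58, 2.00 and 2.26 in the mutant at 3 h, a difference of -2.91 ± 0.279 (SE, adjusted p = 0.00511). At 2 d it read 4.71 to 4.98 in wild type and 4.19 to 4.42 in the mutant, a difference of -0.58 ± 0.261. The 3 mutant arrays at 3 h were thus the low ones. The probe set 264788_at read 3.07, 2.85 and 2.20 in wild type and 5.69, 6.06 and 6.41 in the mutant at 3 h (3.35 ± 0.439, adjusted p = 0.0480). At 2 d both genotypes read 6.11 or more and the difference was -0.02. For 264788_at the 3 wild-type arrays at 3 h were the low ones. Its call stood in 3 of 13 fits that left out 1 array, those without wild-type replicate 3 or mutant replicate 1 or 2 at 2 d, and that of AT3G43930 in 13 of 13. With a pseudocount of 16 neither passed at 3 h, and with quantile normalization or centred arrays AT3G43930 passed and 264788_at did not. The call of 253204_at was lost at 3 h without mutant replicate 1, and at 2 d without wild-type replicate 2 or 3 or mutant replicate 1 or 2.

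The test of whether the genotype difference changed between 3 h and 2 d passed at 0 of 22746 probe sets, with 683 at an unadjusted p under 0.05 (3.00%). It gave 2.33 ± 0.382 for AT3G43930 (unadjusted p = 6.7e-05, adjusted p = 0.486) and -3.37 ± 0.602 for 264788_at (unadjusted p = 0.000141, adjusted p = 0.486). The median SE of this interaction was 0.427, against 0.211 for the pooled difference.

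The ozone arrays gave the same measure in samples that the clean-air comparison did not use. There 2 probe sets passed (0.00879%), again 267375_at and 253204_at. Under ozone 267375_at read 8.58 to 9.67 in wild type and 1.26 to 4.90 in the mutant, a difference of -6.75 ± 0.431. Under ozone 253204_at read 10.32 to 11.36 in wild type and 7.69 to 8.83 in the mutant, a difference of -2.76 ± 0.215. AT3G05170 read 5.82 to 6.73 in the 7 mutant arrays in ozone. Wild type in ozone read 5.96, 1.49 and 3.23 at 3 h and 1.72, 2.87, 1.43 and 1.26 at 2 d, so that again 1 of the 3 h wild-type arrays reached the mutant level. The AT3G05170 difference in ozone was 3.63 ± 0.571 (SE, adjusted p = 0.153).

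The other clean-air calls were small in ozone. AT3G13630 read 5.78 to 6.79 in wild type and 4.47 to 6.92 in the mutant there, a difference of -0.30 ± 0.254 with overlapping groups. For 250108_at the difference in ozone was -0.31 ± 0.631. The difference of AGL42 in ozone was -0.92 ± 0.388 and that of AT5G17700 was -0.58 ± 0.216, neither past the test. The other lower genes given by value differed less in ozone: AT5G05840 by -0.36 ± 0.396, AT1G70270 by -0.09 ± 0.323 and AT2G39620 by -0.02 ± 0.248. AT2G06960 differed by 0.007 ± 0.255 and AT5G38020 by 0.05 ± 0.223. On the higher side AT2G40435 and AT5G22820 stood at -0.19 and -0.11 in ozone. ATCRT1, AT3G25400, AT5G08520, AT4G28240 and AT1G62045 stood between 0.08 and 0.53. The genotype by air interaction, fitted on all 27 arrays, passed at 0 probe sets, with 567 at an unadjusted p under 0.05 (2.49%). It gave 1.14 ± 0.314 for AT3G13630 (unadjusted p = 0.0015, adjusted p = 0.9998) and -0.70 ± 0.265 for 253204_at (unadjusted p = 0.0153, adjusted p = 0.9998). Across all probe sets the differences in clean air and in ozone correlated at r = 0.170, and at r = 0.290 over the 15256 probe sets with a mean level of at least 6. These correlations are across probe sets, which are not independent, and the 2 sets of differences share the platform and the 2 genotypes but no array. Of the 32 probe sets with an unadjusted p under 0.001 in clean air, 23 had the same sign in ozone (71.9%), against 54.1% of all probe sets.

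**Figure D3:**
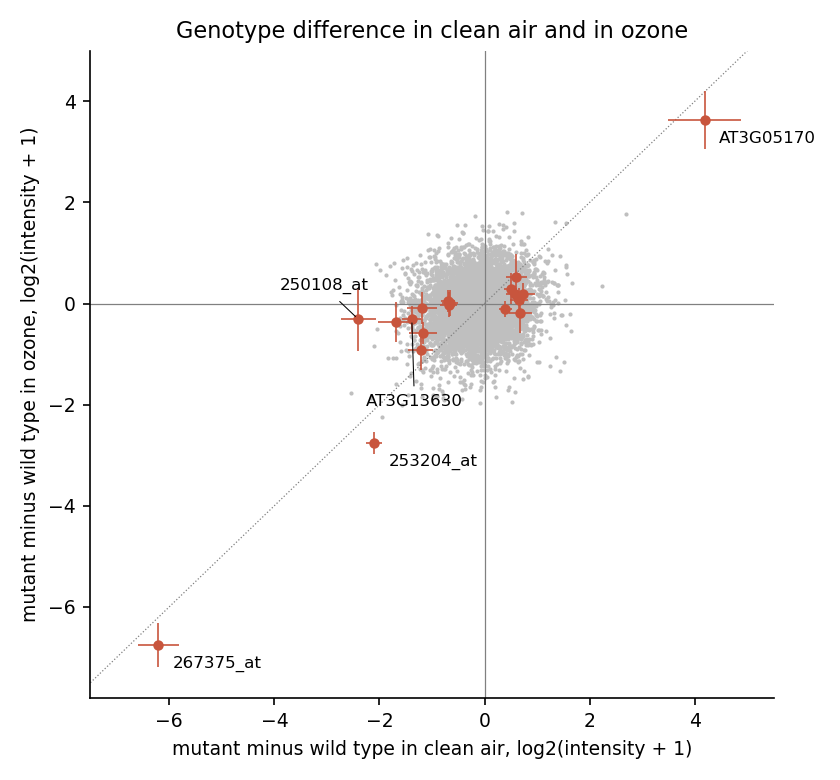
The difference of mutant minus wild type in clean air (x axis) is plotted against that in ozone (y axis), both in log2(intensity + 1). Grey points are all probe sets, and the dotted line marks equal differences. Red points with SE bars are the pooled clean-air calls and the genes of next smallest p given by value, without PRN and ARD4. 267375_at, 253204_at and AT3G05170 lie far from 0 on both axes, while AT3G13630 and 250108_at lie near 0 on the y axis.

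The gene groups of leaf physiology that the annotation covers held no gene that passed. In 32 groups with at least 3 measured genes there were 476 distinct genes. Of these 0 passed in limma, against 1 of 13350 genes (0.00749%), and 16 had an unadjusted p under 0.05 (3.36%, with 4 higher and 12 lower), against 4.54% of the 13350. Group medians ran from -0.34 to 0.35, and 23 of the 32 lay within 0.1 of 0. The median over the 13350 genes was -0.05. The 95% interval of the difference lay within 1 log2 unit on either side of 0 for 338 of the 476 genes (71.0%).

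Guard cell and stomatal regulators are a group in which G-protein mutants have known phenotypes, and all 4 measured members stood below 0, or 3 of 4 with quantile normalization or centred arrays. Of the 13350 genes, 60.1% stood below 0, or 50.8% with quantile normalization and 49.4% with centred arrays. SPCH, the factor that starts the stomatal lineage, read 3.79 ± 0.921 (SD, n = 7) in wild type and 2.41 ± 0.656 (SD, n = 6) in the mutant. That is a difference of -1.36 ± 0.432 (unadjusted p = 0.0081, adjusted p = 0.999), in a range where intensities are dim. STOMAGEN, a secreted peptide that promotes stomata, differed by -0.56 ± 0.419. FAMA, which ends guard cell divisions, differed by -0.13 ± 0.198, and MUTE by -0.03 ± 0.162. The group median was -0.34 in clean air and 0.01 in ozone.

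Genes of abscisic acid, dehydration and flavonoid responses had positive medians, and none passed. The abscisic acid group and the cold and dehydration group share genes, COR47 among them, so their medians do not come from separate sets. The 9 cold and dehydration genes had a median of 0.35, which was 0.18 with a pseudocount of 16 and -0.14 in ozone, and 3 of the 9 stood below 0. Split by time, the clean-air median of these 9 genes was lower, at 0.22 at 3 h and 0.08 at 2 d. Their lowest p was that of AT2G46140, at -0.29 ± 0.164, and AtLEA4-1 differed by -0.74 ± 0.673. LEA4-5 differed by 0.66 ± 0.459, COR47 by 0.53 ± 0.631 and the zinc finger factor STZ by 0.35 ± 0.371. The 5 abscisic acid genes had a median of 0.28 (0.16 in ozone) with 2 of the 5 below 0, or 1 with quantile normalization or centred arrays, and with the dehydrin LTI30 at 0.57 ± 0.630 and COR15A at -0.004 ± 0.238. The 8 flavonoid genes had a median of 0.20, which was -0.16 in ozone. Their lowest p was that of the flavonol glycosyltransferase gene UGT78D1, at -0.60 ± 0.348, the only one of the 8 below 0, and the anthocyanin enzyme gene DFR differed by 0.64 ± 0.678.

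Photosynthesis genes differed little. The 8 nuclear light harvesting and photosystem genes lay between -0.19 and 0.19 with a median of -0.01 (0.05 with centred arrays), and all 8 intervals lay within 1 log2 unit. The antenna gene LHCB4.1 differed by 0.05 ± 0.113 and the photosystem I gene PSAE-1 by 0.17 ± 0.115. The 69 plastid-encoded genes had a median of -0.03 (0.02 with centred arrays), and 64 of their intervals lay within 1 log2 unit. The lowest p among them was that of rps16, a plastid ribosomal protein gene, at -0.44 ± 0.183 (unadjusted p = 0.0338). The 11 tetrapyrrole genes, which make chlorophyll and haem, had a median of 0.04.

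No gene of the defence groups or of the mixed group of defensins and small secreted peptides passed. The 6 salicylic acid and immune genes had a median of -0.08, with the ubiquitin ligase genes PUB22 at -0.43 ± 0.328 and PUB23 at -0.21 ± 0.363 and the receptor kinase partner BIK1 at -0.09 ± 0.242. The 8 jasmonate genes had a median of -0.07, with the defensin PDF1.2 at -0.31 ± 0.625 and the factors MYC3 at 0.08 ± 0.173 and MYC4 at -0.20 ± 0.348. The 7 WRKY factors had a median of -0.05, which became 0.01 once arrays were centred on their medians. WRKY47 differed by -0.52 ± 0.215 (unadjusted p = 0.0327) and WRKY53 by -0.45 ± 0.343. Among the 34 defensins and small secreted peptides, PDF2.5 had the largest difference at -1.59 ± 0.347 (adjusted p = 0.595), from 4.95 ± 0.667 (SD, n = 7) to 3.45 ± 1.16 (SD, n = 6).

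No cell wall gene of these groups passed. Of 23 trichome birefringence-like genes, whose products acetylate wall polysaccharides, 20 stood below 0 (87.0%, against 60.1% of the 13350 genes), with a median of -0.16. With quantile normalization 14 stood below 0 (60.9%, against 50.8%) and the median was -0.06, and with centred arrays 17 stood below 0 (73.9%, against 49.4%) and it was -0.10. The lowest p was that of AT2G31110, at -0.48 ± 0.188 (unadjusted p = 0.0248). The 29 expansins and xyloglucan endotransglucosylases, which loosen and remodel walls, had a median of -0.02 that turned to 0.10 with quantile normalization and 0.04 with centred arrays, and the 10 cellulose synthase family genes one of 0.12. The 11 autophagy genes had a median of 0.07. Their lowest p was that of ATG8E, a ubiquitin-like protein of autophagosome formation, at 0.77 ± 0.267 (unadjusted p = 0.0133, adjusted p = 0.999).

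**Figure D4:**
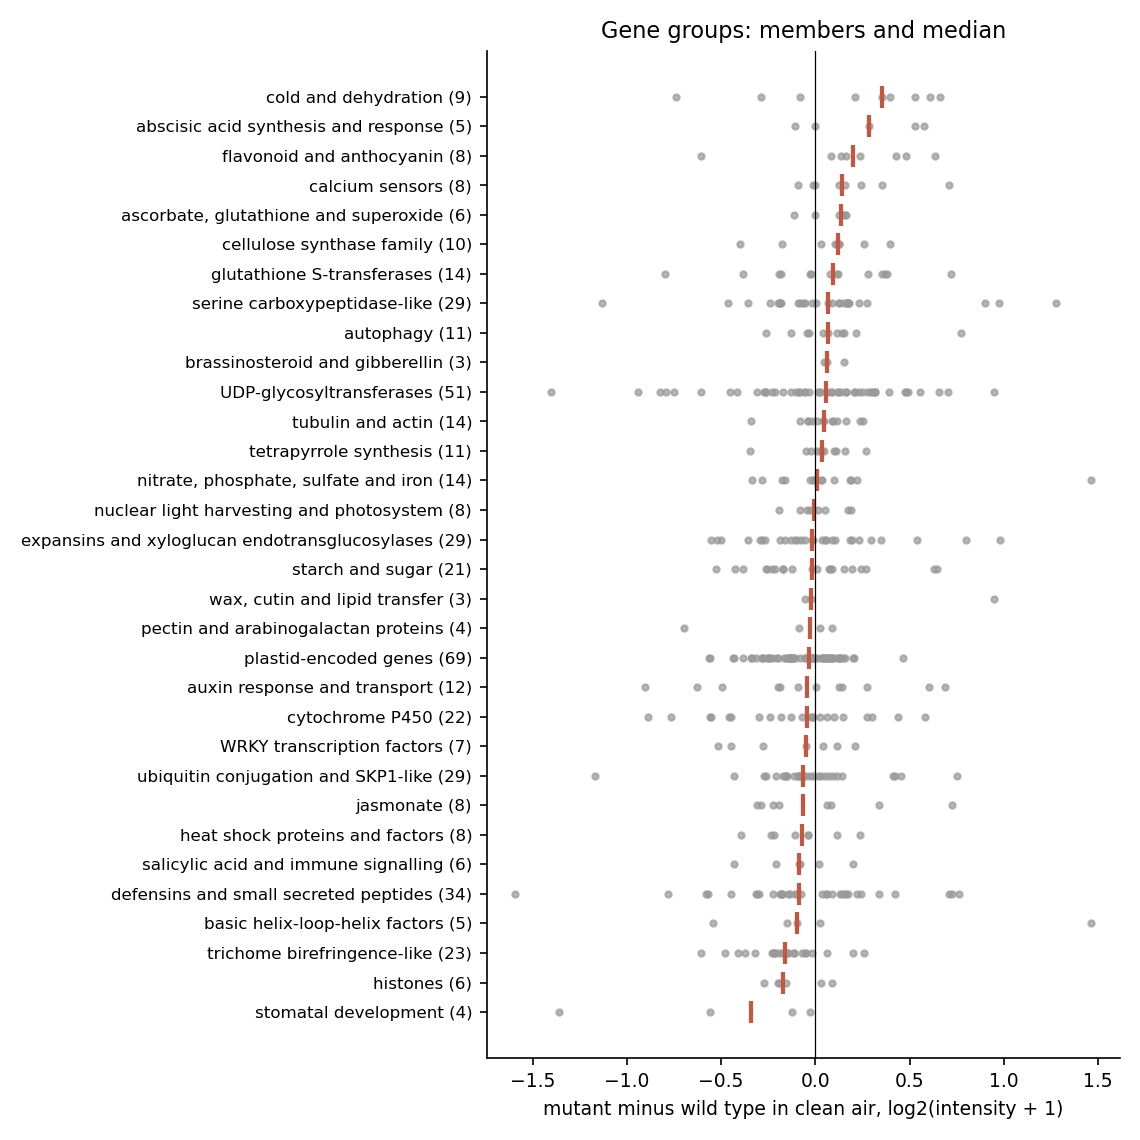
Each grey point is 1 gene, placed by its difference of mutant minus wild type in clean air (log2(intensity + 1)), and each red bar is the median of a gene group, with the number of measured genes in brackets. Medians run from -0.34 to 0.35, and 0 of the 476 genes passed the test.

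The arrays bounded most differences at readable intensities. The 95% interval of the pooled difference lay within 1 log2 unit on either side of 0 for 94.5% of probe sets with a mean level of 10 or more, for 92.9% of those from 8 to 10, for 88.2% of those from 6 to 8 and for 35.5% of those under 6. Over all levels this held for 16611 probe sets (73.0%). The median SE was 0.152 at a level of 10 or more and 0.403 under 6.

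The lower side of the comparison was fuller than the higher side, mostly at levels under 8. Of the 964 probe sets with an unadjusted p under 0.05, 744 were lower and 220 higher in the mutant. Under a level of 6 there were 475 lower and 107 higher, and from 6 to 8 there were 196 lower and 37 higher. From 8 to 10 there were 59 lower and 50 higher, and at 10 or more 14 lower and 26 higher. With quantile normalization the split was 429 lower and 395 higher, and with centred arrays it was 542 lower and 350 higher. The 25th percentile of intensity lay between 38.6 and 53.6 in wild-type arrays and between 36 and 42.7 in mutant arrays. Medians lay between 153.5 and 176.8 in wild type and between 158.3 and 171.8 in the mutant. The wild-type median of 153.5 was that of replicate 3 at 2 d. Every other wild-type median was 173.1 or more, above the highest mutant median.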

How the data were processed

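Total RNA from leaves was labelled with biotin and hybridised to ATH1 arrays. The deposited values are linear intensity values, 1 for each of 22746 probe sets and array. Per the submitters' processing notes, Affymetrix Expression Console and RMA were used; for versions, background correction and scaling the sources used here give nothing. RMA usually gives log2 values, whereas these are linear, with trimmed means of 495.9 to 496.8 over the 27 arrays, so how dim values were made is unknown. No label gives the chamber of an array, and chamber was therefore not tested. Detection calls were not used here, and the number of arrays limits the precision.

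The test ran on log2(intensity + 1), unfiltered and without another normalization. On this scale the added 1 makes a difference of dim probe sets smaller than the log2 ratio of their intensities. Genotype and time were fitted with limma 3.58.1 in R 4.3.3 over the 13 clean-air arrays (10 residual degrees of freedom, 12.35 with the prior), with 2-sided p-values adjusted by Benjamini-Hochberg over all probe sets. Each time and the genotype by time interaction came from 4 group means, the ozone comparison from 14 arrays and the genotype by air interaction from 27. The fit was tested on simulated data. Replicate numbers are shared between genotypes, but no label says what a number shares, so the numbers were not taken to pair arrays. Deviations of same-numbered arrays from group means correlated at -0.087 to 0.214. With so few arrays per group these correlations cannot settle whether the numbers pair arrays.

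Gene names are those of the platform annotation, brought up to date with the TAIR10.1 gene table: 13513 probe sets had 1 gene, 503 several and 8730 none, and 77 genes kept the annotation's name. A gene with several probe sets is represented in gene groups by the one of highest mean. Named genes are those that passed (mean level of at least 6 in the higher genotype), filled to 8 per direction by smallest p, up to 4 unnamed probe sets per direction that passed, up to 3 members per gene group by smallest p (further members shown were chosen after their values were seen), and measured G-protein partners. Gene groups were built from annotated symbols. The comparison and the gene groups were chosen with earlier results of these data known. Alternatives changed the pseudocount, normalization, level filter, weights, variance model, arrays, covariate and replicate block, and left out each array in turn.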

Additional observations from a re-analysis of the deposited data

How the results depend on the processing

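Of the pooled calls, 267375_at passed in 21 of 21 alternatives in which it was tested (-6.46 to -4.35) and 253204_at in 22 of 22 (-2.19 to -2.03). A filter at a mean level of 6 leaves out 267375_at by construction. The count of 4 pooled calls was 2 with quantile normalization, with centred arrays, with trended and robust variances and with the replicate block, and 1 with the level filter. It was 3 with a pseudocount of 16 and with array weights, 4 without the time covariate and 4 with all 27 arrays, and 2 to 3 when 1 array was left out. At 3 h the 4 calls became 2 with a pseudocount of 16 (AT3G43930 and 264788_at were lost) and 0 with the replicate block (1095 at an unadjusted p under 0.05), and 3 to 9 when 1 array was left out, with 9 without wild-type replicate 2 at 3 h and 7 without wild-type replicate 1 or mutant replicate 2 at 3 h. At 2 d the 2 calls became 0 with the replicate block (970 unadjusted) and 1 to 4 when 1 array was left out. They were 4 without wild-type replicate 2 or mutant replicate 2 at 3 h, and 1 without wild-type replicate 2 or 3 or mutant replicate 1 at 2 d. The genotype by time count was 0 with a pseudocount of 16, quantile normalization, centred arrays and the replicate block, and 0 to 1 when 1 array was left out, with 1 without wild-type replicate 2 at 3 h (255609_s_at). The replicate block fits have fewer residual degrees of freedom and drop wild-type replicate 4 at 2 d, which has no partner. The ozone count was 3 with a pseudocount of 16 (AT3G05170 passed) and 2 with quantile normalization and with centred arrays, and the genotype by air count was 0 in these 3 alternatives, the only ones run for both. ARD4, at 0.02 in the main setting, was -0.023 with the replicate block and -0.088 to 0.109 when 1 array was left out. The other genes and probe sets named by rule for the pooled comparison kept their sign in the alternatives run for them. The flavonoid median of 0.20 was 0.10 with the replicate block. Single members of gene groups were not followed across alternatives, nor were the differences of AT3G43930 and 264788_at. The cause of these changes was not tested except where stated. Dim probe sets limit the comparison: 35.5% of intervals under a level of 6 lay within 1 log2 unit.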
